A study of Mus musculus with 65 samples.

Results

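Id2 and Id3, inhibitors of the helix-loop-helix transcription factors, were followed in the spinal cord through the 3 spots of a cDNA filter that carry their names, feature 12323 and feature 12394 for Id2 and feature 11853 for Id3. These were all the features annotated with the single symbol Id2 or Id3, 3 of the 8448 features on the filter. Of all features 4875 carried a single symbol, for 4209 genes, and Id1 and Id4 were not analysed here. The 2 genes were chosen by name but with earlier results of these data in view, since Id2 had been selected on its measured difference between diets at 16 months. That difference, and the mean over 3 ages that contains it, are therefore given as descriptions without a test, and the remaining comparisons were tested.

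The Id proteins are short helix-loop-helix proteins that lack the basic region with which their relatives bind DNA. They pair with the widely expressed E proteins (Tcf3, Tcf4 and Tcf12) and keep these from DNA, so that tissue-specific partners find fewer E proteins to pair with. Bone morphogenetic proteins (BMPs) raise transcription of the Id genes through the Smad factors, and in the nervous system Id proteins are known for holding neural and oligodendrocyte precursors back from differentiation, and for their presence in astrocytes and in vessel walls.

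The 250 bases before the start of each gene, from RefSeq, are shown for the motifs of the proteins just named. Capitals mark CANNTG, the E-box bound by E protein dimers, CAGAC or its reverse complement GTCTG, a short Smad-binding element, and GGCGCC, the GC-rich sequence found in BMP response elements. The build was GRCm38.p6, with Id2 on the minus strand at chr12:25096093-25096342 and Id3 on the plus strand at chr4:136143572-136143821.
Id2: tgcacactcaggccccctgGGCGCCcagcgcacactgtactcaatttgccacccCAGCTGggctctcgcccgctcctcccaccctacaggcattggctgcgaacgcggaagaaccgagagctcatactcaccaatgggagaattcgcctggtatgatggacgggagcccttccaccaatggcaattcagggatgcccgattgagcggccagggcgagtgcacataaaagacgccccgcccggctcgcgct
Id3: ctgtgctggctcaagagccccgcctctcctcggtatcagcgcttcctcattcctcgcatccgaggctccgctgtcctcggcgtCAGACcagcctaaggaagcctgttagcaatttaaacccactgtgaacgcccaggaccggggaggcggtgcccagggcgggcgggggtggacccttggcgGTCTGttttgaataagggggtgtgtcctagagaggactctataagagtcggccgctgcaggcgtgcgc
The Id2 window held 1 E-box, which began 196 bases before the start, and 1 GGCGCC, which began 231 bases before it, and no CAGAC. In the Id3 window CAGAC or its complement occurred at 167 and at 68 bases before the start, with no E-box and no GGCGCC. Searched on both strands in all 32851 RefSeq promoter windows of this length, CANNTG was present in 66.2%, CAGAC in 42.2% and GGCGCC in 9.59%. CCAAT, in 33.8% of all windows, occurred 3 times in that of Id2 and not in that of Id3, and TATAAA, in 12.4%, in neither. None of the capital stretches overlapped. Both windows had a GC content of 62.8%, against a median of 52.4% over all windows. A match is a description of the letters, and no measurement of the study was made on these windows.

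Radiolabelled cDNA had been made from total RNA of the whole spinal cord of 65 C57BL/6 mice. It had been hybridized to nylon membranes spotted with mouse cDNA clones, filter B of its set, with 1 filter for each mouse. All the mice were of 1 strain with no transgene or mutation named in the labels, and the 67 mice of the design text were not all analysed here. There were 40 mice fed ad libitum (AL) and 25 on caloric restriction (CR), 31 males and 34 females. The AL groups were 10 juveniles of 17 to 44 days, 10 mice of 6 months (169 to 194 days), 10 of 16 months (476 to 499 days) and 10 of 24 months (704 to 743 days), each with 5 males and 5 females. The CR groups were 8 mice of 6 months (174 to 194 days, 3 males and 5 females), 10 of 16 months (472 to 499 days, 5 of each sex) and 7 of 24 months (673 to 743 days, 3 males and 4 females). All 3 CR males of 24 months were 673 days old, younger than every AL mouse of 24 months. In males of that age, diet and days of age cannot be told apart. Restricted mice had regular feed to 13 weeks of age, then fortified feed stepped down to 90%, to 75% and finally to 60%, which they kept to the end. Each value is a Z score, in which 0 is the mean and 1 the SD of all the features of that array, and every difference below is in these Z units and not a fold.

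By their values the arrays fell into 2 sets that no label names, called the first run (41 arrays) and the second run (21 arrays). The 3 further arrays (31 to 33, from 2 CR mice and 1 AL mouse, all of 6 months) stood apart from both. The first run held the arrays numbered 1 to 21 and 44 to 65. The second held those numbered 22 to 43, without arrays 31 to 33, and 66 and 67. The names first and second thus give no order. Array 33, an AL male of 6 months, was the lowest or the highest of the 65 arrays in 61.9% of all features, array 31 in 11.1% and array 32 in 14.6%. The CR mice of 6 months had no array in the second run and the AL mice of that age 1. The labelled tissue was checked on neuron and astrocyte markers. The 2 spots of Nefl, a neurofilament subunit, had higher mean Z scores than 87.0% and 83.0% of the features, and Gja1, the astrocyte gap junction protein, than 88.2%. Of the rest of these lists Sparcl1, Cst3 and Ndrg2 were above 72.6% to 79.4%, but the neuronal glutamate transporter Slc17a6 was above 38.9%, the 2 spots of the astrocyte glutamate transporter Slc1a3 above 34.3% and 19.2%, and Clu, also abundant in astrocytes, above 6.90%.

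The Id features lay in the lower and middle part of the range of the filter. Mean Z scores over the 65 arrays were -0.489 for Id2 feature 12323, above 30.2% of all features, 0.167 for Id2 feature 12394, above 58.2%, and -0.664 for Id3, above 23.4%. The 2 spots of Id2 are separate clones, and since signal also depends on the clone and the spot, their levels are not set against each other or against Id3. In RNA of a whole tissue, fewer cells of a type and less RNA per cell cannot be told apart.

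In AL mice, the means of Id2 feature 12323 over all arrays lay between -0.442 and -0.411 from youth to old age. In the juveniles its Z scores ran from -0.54 to -0.29 with a median of -0.47, and the mean was -0.442 ± 0.0864 (SD, n = 10). At 6 months they ran from -0.56 to 0.00 with a median of -0.505 and a mean of -0.439 ± 0.175 (n = 10), and without array 33, which gave the 0.00, the mean was -0.488 ± 0.0881 (n = 9). At 16 months the range was -0.52 to -0.34, the median -0.45 and the mean -0.437 ± 0.0625 (n = 10). The 3 groups overlapped over most of their ranges, and the 16-month mice were the least spread. At 24 months the range was -0.61 to -0.25, the median -0.405 and the mean -0.411 ± 0.102 (n = 10).

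In CR mice the same spot gave lower values at each adult age. At 6 months they ran from -0.89 to -0.47 with a median of -0.60 and a mean of -0.621 ± 0.139 (n = 8), and without arrays 31 and 32 the mean was -0.585 ± 0.103 (n = 6). At 16 months the range was -0.69 to -0.39, the median -0.545 and the mean -0.560 ± 0.105 (n = 10), and at 24 months the range was -0.66 to -0.39, the median -0.59 and the mean -0.559 ± 0.0912 (n = 7). At 16 months 9 of 10 CR mice lay below the AL mean and 6 below the lowest AL mouse, while 2 of 10 AL mice lay above the highest CR mouse. At 24 months 6 of 7 CR mice were below the AL mean and 2 below the lowest AL mouse, so that the groups overlapped at both ages. Ordered by mean without arrays 31 to 33, the 3 CR groups were the lowest of the 7 stage and diet groups and the AL mice of 24 months the highest, and no 2 neighbours in that order differed by as much as the smaller of their SDs.

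**Figure D1:**
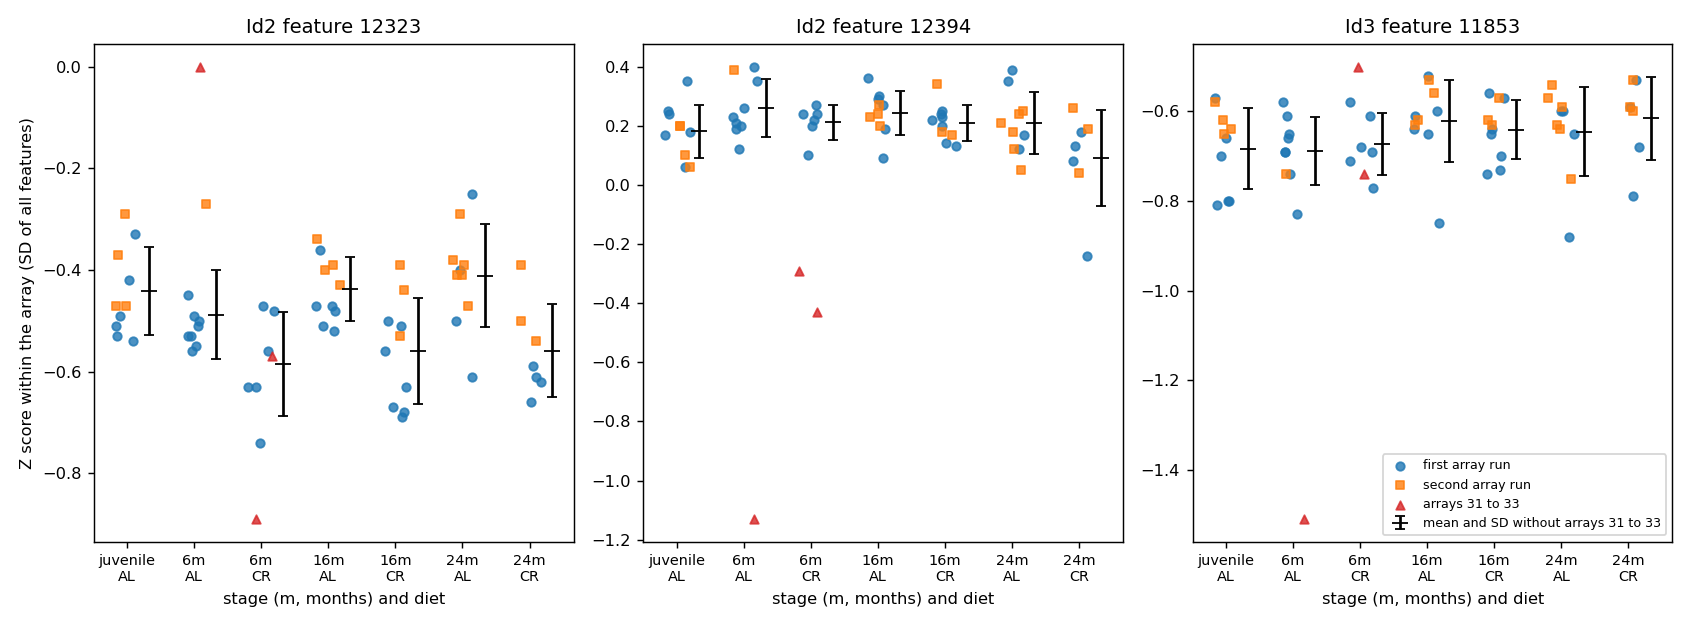
Z scores (y axis, in SDs of all features of an array) of the 2 Id2 features and the Id3 feature in each of the 65 mice by stage and diet (x axis), with colours for the array runs, red triangles for arrays 31 to 33, and black bars for the mean and SD without those 3. The CR groups of Id2 feature 12323 have the 3 lowest means, from -0.585 to -0.559, while array 33 lies at 0.00, -1.13 and -1.51 in the 3 panels, away from the other mice of its group.

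Id2 feature 12394 showed a smaller separation of the diets. Its values in juveniles ran from 0.06 to 0.35 (median 0.19, mean 0.181 ± 0.0904, n = 10). AL mice of 6 months ran from -1.13, which was array 33, to 0.40 with a median of 0.22 and a mean of 0.122 ± 0.449 (n = 10), or 0.261 ± 0.0975 without that array (n = 9). CR mice of 6 months ran from -0.43 to 0.27 with a median of 0.21 and a mean of 0.0688 ± 0.272 (n = 8), and arrays 31 and 32 were the only ones below 0, the mean without them being 0.212 ± 0.0595 (n = 6). Apart from the arrays that stood apart, the diets overlapped at this age. At 16 months AL mice ran from 0.09 to 0.36 (median 0.255, mean 0.244 ± 0.0737, n = 10) and CR mice from 0.13 to 0.34 (median 0.21, mean 0.210 ± 0.0613, n = 10). At 24 months AL mice ran from 0.05 to 0.39 (median 0.195, mean 0.208 ± 0.105, n = 10) and CR mice from -0.24 to 0.26 (median 0.13, mean 0.0914 ± 0.163, n = 7). At 24 months 6 of 7 CR mice were below the AL mean and 2 below the lowest AL mouse. Neighbouring groups in the order of means, from CR mice of 24 months to AL mice of 6 months, again differed by less than the smaller SD.

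Id3 lay in a similar range in every group apart from array 33. Its values ran from -0.81 to -0.57 in the juveniles (median -0.655, mean -0.683 ± 0.0910, n = 10). AL mice of 6 months ran from -1.51, again array 33, to -0.58 with a median of -0.69 and a mean of -0.770 ± 0.270 (n = 10), or -0.688 ± 0.0755 without it (n = 9). CR mice of 6 months ran from -0.77 to -0.50 (median -0.685, mean -0.660 ± 0.0901, n = 8). The diets could hardly be distinguished by eye at this age. AL mice of 16 months ran from -0.85 to -0.52 (median -0.615, mean -0.621 ± 0.0922, n = 10) and CR mice of 16 months from -0.74 to -0.56 (median -0.635, mean -0.641 ± 0.0654, n = 10). At 24 months the AL values were -0.88 to -0.54 (median -0.615, mean -0.645 ± 0.100, n = 10) and the CR values -0.79 to -0.53 (median -0.59, mean -0.616 ± 0.0920, n = 7). At both later ages no CR mouse lay below the lowest AL mouse, and as for Id2, neighbouring group means differed by less than the smaller SD.

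The comparison of the diets was fitted with limma over all features, with both sexes weighted equally. For Id2 feature 12323 the CR minus AL difference was -0.123 (SE 0.0528) at 16 months, the age in which Id2 had been named before, and -0.157 (SE 0.0324, 95% interval -0.222 to -0.0917) as the mean over the 3 ages. The share of all features called at an adjusted p under 0.05 was 0% at 16 months (63 of 8448 had an unadjusted p under 0.05) and 0.0237% over the 3 ages, that is 2 features. Id2 feature 12323 was 1 of these 2, and nothing is read from that, since its choice used part of the same contrast. The other 2 spots gave -0.034 (SE 0.0952) for Id2 feature 12394 and -0.020 (SE 0.0611) for Id3 at 16 months, and -0.0772 (95% interval -0.194 to 0.040) and 0.0407 (95% interval -0.0345 to 0.116) over the 3 ages.

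The mice of 6 and 24 months had no part in the 16-month contrast. In them the difference of Id2 feature 12323 had the same sign, -0.199 at 6 months (SE 0.0570) and -0.149 at 24 months (SE 0.0585), and with limma's adjusted p-values of 0.540 and 0.634 neither passed the adjustment over 8448 features. At 6 months the share called was 0.0237% and at 24 months 0% (627 features at an unadjusted p under 0.05), and no Id feature was among them. Feature 12394 gave -0.073 (SE 0.103, adjusted p = 0.915) and -0.125 (SE 0.106, adjusted p = 0.743), and Id3 gave 0.111 (SE 0.0660, adjusted p = 0.663) and 0.0308 (SE 0.0677, adjusted p = 0.941). Of the 3 only Id2 feature 12323 had an unadjusted p under 0.05 at these ages, as had 656 of the 8448 features at 6 months and 627 at 24 months. In the fit with the array run described next, feature 12394 also had one at 24 months (-0.126, unadjusted p = 0.0146, adjusted p = 0.169 in limma), and feature 12323 at 6 months did not (-0.0892, unadjusted p = 0.0518). With 1 array left out these values changed, that of feature 12394 at 6 months to 0.027 (without array 31) and at 24 months to -0.058 (without 24-month CR male replicate 1), and that of Id3 at 6 months to 0.0261 (without array 33).

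The 6-month difference of Id2 feature 12323 leaned on the arrays that stood apart. Of the 8 CR mice of that age 8 lay below the AL mean, but 4 of 6 once arrays 31 to 33 were left out, when the plain difference in means was -0.0972 in place of -0.182. Within the first run it was -0.070 at 6 months (6 CR against 8 AL mice), -0.137 at 16 months (7 against 6) and -0.180 at 24 months (4 against 4). Within the second run it was -0.0633 at 16 months (3 against 4) and -0.085 at 24 months (3 against 6). The 16-month values are those behind the choice of Id2. In a fit that had the run as a covariate and left those 3 arrays out, called the run fit below, the mean over the 3 ages was -0.111 (SE 0.0237), the difference at 6 months -0.0892 (SE 0.0448) and that at 24 months -0.130 (SE 0.0407, adjusted p = 0.104). For Id2 feature 12394 that fit gave -0.0724 (95% interval -0.131 to -0.0143) over the 3 ages, and for Id3 0.0104 (95% interval -0.0360 to 0.0569). By sex, the difference of feature 12323 was -0.178 in males and -0.068 in females of 16 months (5 against 5 mice each), and -0.141 and -0.157 at 24 months, and the difference between the sexes was not tested. The CR males of 24 months were also younger in days than the AL males, as given above.

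**Figure D2:**
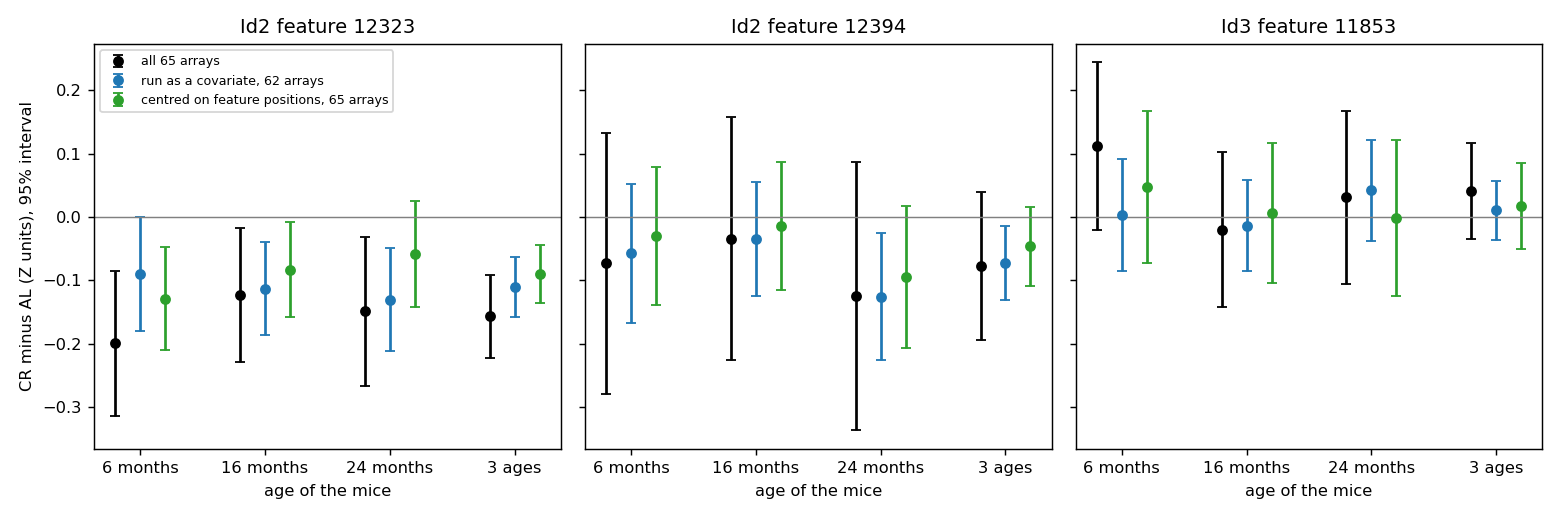
CR minus AL difference (y axis, Z units, bars for the 95% interval) of each Id feature at 6, 16 and 24 months and as the mean over the 3 ages (x axis), for all 65 arrays, for the run fit of 62 arrays, and after centring on feature positions. Over the 3 ages feature 12323 lies at -0.157, -0.111 and -0.0898 in the 3 fits, but its intervals include 0 at 6 months in the run fit and at 24 months after centring, as do most intervals of feature 12394 and all of Id3.

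The diet difference also varied with the feature number. Positions were counted along this number in repeats of 22, with 384 features at each. The period of 22 was a setting, and no spot coordinates were used. Id2 feature 12323 has position 3, Id2 feature 12394 position 8 and Id3 position 17. Over the 3 ages the median CR minus AL difference of all features at position 3 was -0.0555, the lowest of the 22 positions, that at position 8 was -0.0374 and that at position 17 was 0.0473. The sign of each Id feature was thus that of the median at its position. Among the features at its own position 1.30% had a lower difference than Id2 feature 12323, against 0.497% of all features. For Id2 feature 12394 these shares were 15.4% and 7.32%. The shares are descriptions, since the choice of Id2 used part of the same contrast, and a low share was favoured by that choice. Of the 8 features that lay 1, 2, 22 or 44 numbers away from Id2 feature 12323, 7 had a negative difference, with a median of -0.0506 and a range from -0.0981 to 0.0142. Of those around feature 12394 also 7 were negative, and of those around Id3 2 of 8. Centring each array on the median of each position left -0.0898 (SE 0.0230) for Id2 feature 12323, -0.0462 (SE 0.0308) for Id2 feature 12394 and 0.0173 (SE 0.0339) for Id3, which moved the value of feature 12323 by more than 1.5 times. For that feature the centred difference was -0.129 (SE 0.0405) at 6 months and -0.0577 (SE 0.0416, 95% interval -0.141 to 0.0256) at 24 months. In the run fit position 3 was still the lowest, at -0.0306, and 0.260% of its features were below feature 12323. Nothing is read from that share either, for the same reason of choice.

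**Figure D3:**
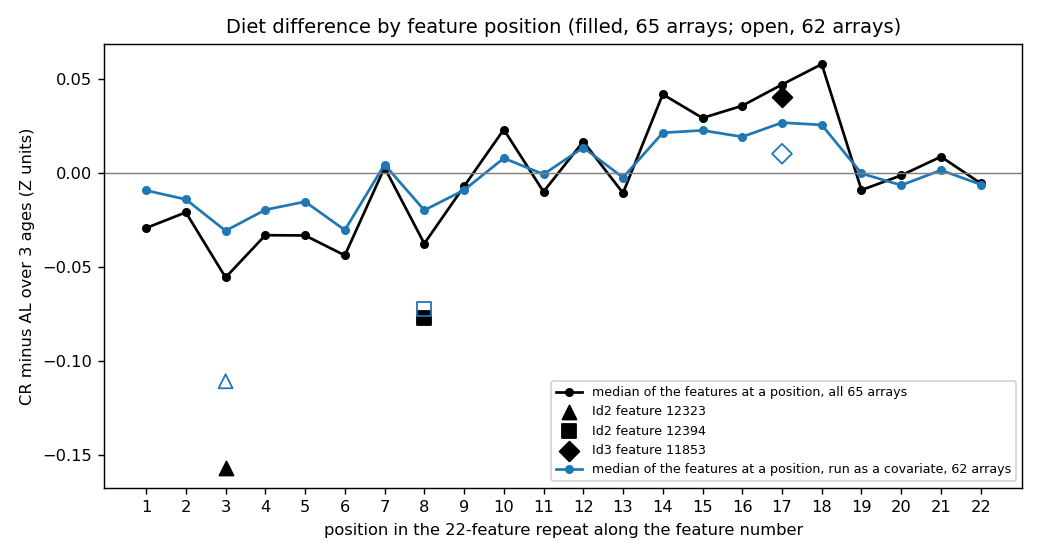
CR minus AL difference over the 3 ages (y axis, Z units) against the position in the 22-feature repeat (x axis), as lines through the medians of all features at each position and as separate markers for the 3 Id features, black for 65 arrays and blue for the run fit of 62 arrays. The medians run from -0.0555 at position 3 to 0.0582 at the highest position in black, and both Id2 markers lie below the median of their own position.

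No Id feature passed the test in any step of age. From the juveniles to 6 months, when 0.13% of all features were called, the changes were 0.003 (SE 0.0528) for Id2 feature 12323, -0.059 (SE 0.0952) for Id2 feature 12394 and -0.087 (SE 0.0611) for Id3, with adjusted p-values from 0.986 upward. From 6 to 16 months in AL mice, with 0.0237% called, Id3 changed by 0.149 (SE 0.0611, unadjusted p = 0.0180, adjusted p = 0.344), the lowest adjusted p of the 3 features in this step. Without arrays 31 to 33 this value was 0.0638 (SE 0.0389), and 9 of 10 mice of 16 months were above the mean of the 9 remaining mice of 6 months. In the run fit it was 0.0456 (SE 0.0374, 95% interval -0.0296 to 0.121). This step and the next share their 16-month AL mice with the diet contrast. From 16 to 24 months 0% of the features were called in AL mice (168 at an unadjusted p under 0.05), and the Id features changed by 0.026 (SE 0.0528), -0.036 (SE 0.0952) and -0.024 (SE 0.0611) in the order above.

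Over the whole adult range from 6 to 24 months in AL mice, in which 0.071% of the features were called, Id3 changed by 0.125 (SE 0.0611, adjusted p = 0.385), and by 0.00944 (SE 0.0386) in the run fit. Id2 feature 12323 changed by 0.028 (SE 0.0528) and Id2 feature 12394 by 0.086 (SE 0.0952) in the same comparison, the latter turning to -0.047 (SE 0.0482) in the run fit. Without arrays 31 to 33 the means of feature 12323 differed by 0.0768, with 8 of 10 mice of 24 months above the 6-month mean. Its value in the run fit was 0.0307 (SE 0.0395). In that fit the 95% interval of each of the 3 features included 0.

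In CR mice the age steps likewise passed no test. The shares called were 0% from 6 to 16 months (583 features at an unadjusted p under 0.05), 0% from 16 to 24 months (436 features) and 0.0237% from 6 to 24 months. Id2 feature 12323 changed by 0.0777 (SE 0.0570), 0.000417 (SE 0.0585) and 0.0781 (SE 0.0624) in these steps. Id2 feature 12394 was lower at 24 than at 16 months in 6 of 7 CR mice compared with the 16-month mean, with a change of -0.127 (SE 0.106, adjusted p = 0.845), or -0.126 (SE 0.0495, adjusted p = 0.211) in the run fit, and of -0.060 without 24-month CR male replicate 1. That mouse, an array of the first run at -0.24, lay apart from the others, whose values began at 0.04. Id3 changed by at most 0.0445 (SE 0.0722) over these steps. The change from 6 to 24 months was also compared between diets, where 0% of all features were called (132 at an unadjusted p under 0.05), and the differences were 0.0501 (SE 0.0817) for Id2 feature 12323, -0.0517 (SE 0.147) for Id2 feature 12394 and -0.0805 (SE 0.0945) for Id3.

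Sex and the age of the juveniles gave no call either. In adults 0% of the features were called between males and females (291 at an unadjusted p under 0.05). Id2 feature 12394 had a mean of 0.115 ± 0.307 in 26 males and 0.208 ± 0.125 in 29 females, with a fitted difference of -0.107 (SE 0.0585, adjusted p = 0.984), and without arrays 31 to 33 the means were 0.190 and 0.226. Id2 feature 12323 differed by -0.0353 (SE 0.0324) and Id3 by -0.0216 (SE 0.0375). The change from 6 to 24 months in AL mice was compared between the sexes too, with 0% called (96 features at an unadjusted p under 0.05) and a lowest adjusted p of 0.995 for the Id features. Juveniles of 25 days or more against younger ones gave 0% called (183 at an unadjusted p under 0.05), and the Id features differed by between -0.0408 and -0.020.

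The Id features differed between the array runs to unlike degrees. With the stage, diet and sex groups in the model, Id2 feature 12323 was higher in the second run by 0.101 (SE 0.0239). Id3 was higher there by 0.0606 (SE 0.0234), and Id2 feature 12394 differed by -0.00554 (SE 0.0292). The runs were divided on the values of all features, these 3 included, so the differences are descriptions and no p-value is given. In the same fit 45.8% of all features differed between the runs at an adjusted p under 0.05, a share that such a division favours. For Id2 feature 12323 the diet difference over the 3 ages was -0.111 in the run fit, which already has the run in its model. The runs were shared unequally by the groups. In the second were 3 of 10 CR and 4 of 10 AL mice of 16 months, and 3 of 7 CR and 6 of 10 AL mice of 24 months.

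The 2 clones of Id2 were correlated from mouse to mouse before centring on feature positions, and did not pass the test after it. After removal of group and run means, their residuals over 62 mice correlated at r = 0.488 (Spearman rho = 0.477, permutation p = 8.0e-05 and 9.0e-05, adjusted over 3 pairs 0.00024 and 0.00027), and at 0.430 without the 2 mice farthest from the median of feature 12323. Within the first run r was 0.507 (n = 41, adjusted permutation p = 0.00237), and within the second 0.442 (n = 21, adjusted permutation p = 0.134) with 0.222 left without the 2 farthest mice. Id3 went the other way from Id2 feature 12394, at r = -0.367 (rho = -0.268, adjusted permutation p = 0.00465 and 0.0520), with -0.389 within the first run and -0.315 within the second (adjusted permutation p = 0.0186 and 0.248). Id2 feature 12323 and Id3 gave r = -0.0524 (rho = -0.0238, adjusted permutation p = 0.688 and 0.854). With run means removed and group means kept, feature 12394 had a median r of 0.283 with all features at position 3. That is the position of feature 12323. Its median r was -0.305 with all features at position 17, the position of Id3. The permutation p-values are set against no correlation and not against this background. Over all 65 arrays, with run means kept, the 2 Id2 clones gave -0.224, Id2 feature 12394 and Id3 gave 0.488, and Id2 feature 12323 and Id3 gave -0.430, but without the 2 farthest arrays these were 0.166, -0.0789 and -0.0942. After each array was centred on the position medians, an alternative chosen after seeing the data, the values were 0.147 for the 2 Id2 clones, -0.213 for Id2 feature 12394 and Id3, and 0.137 for Id2 feature 12323 and Id3, and none passed (adjusted permutation p from 0.289 to 0.290).

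**Figure D4:**
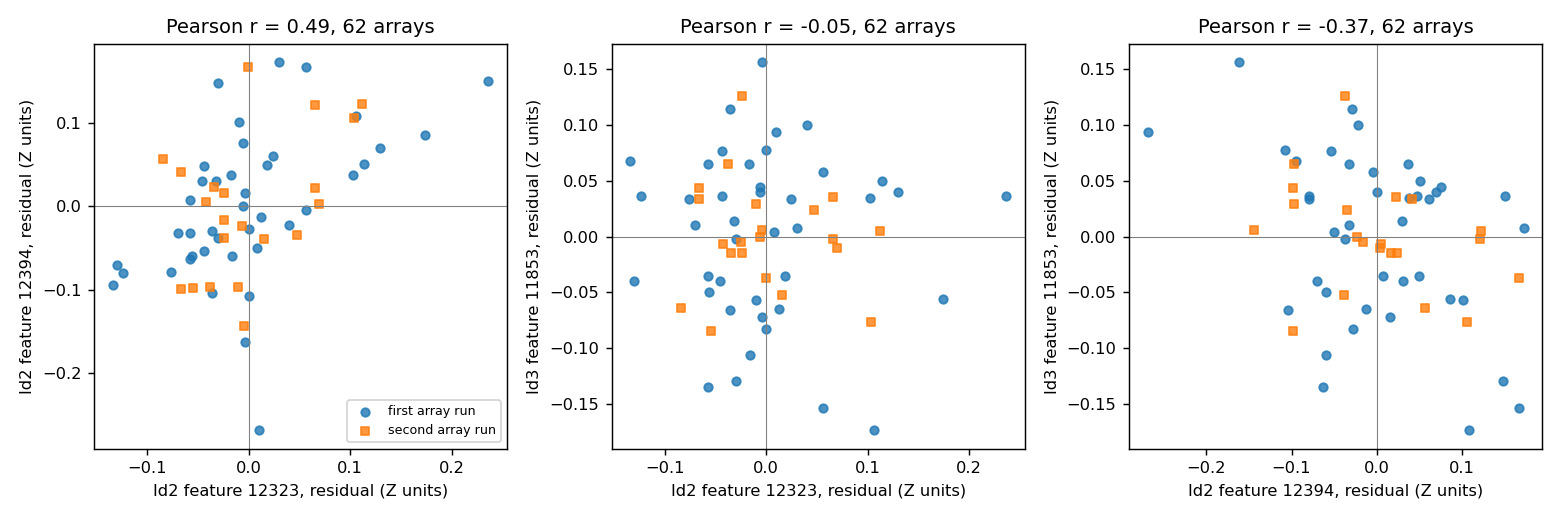
Residual Z scores of each pair of Id features in 62 mice, after removal of group and run means (both axes in Z units, colours for the runs). The values are not centred on feature positions. The 2 Id2 features rise together with r = 0.49, and Id3 and Id2 feature 12394 run against each other with r = -0.37. Id3 and Id2 feature 12323 show no slope with r = -0.05.

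The features most like each Id feature across the mice included more of its neighbours in position than all features do, least so for Id2 feature 12323. Likeness was taken as Pearson's r over 62 arrays with run means removed, among features with a single symbol, and is a description since arrays share groups and filter layout. For Id2 feature 12394 the 5 highest were Klhl13 (r = 0.786), Eef1b2 (0.783), Atp1b3 (0.749), Ccnl2 (0.725) and P4ha1 (0.722), and all 5 have position 8 as well. For Id3 they were Mcam (0.728), Llgl1 (0.687), Gpat2 (0.677), Gosr2 (0.646) and Zfp212 (0.642), of which Mcam is 2 and Llgl1 4 feature numbers away. Id2 feature 12323 had weaker companions, namely Ube2s (0.562), Snx8 (0.561), Gstcd (0.542), Gde1 (0.539) and Tti1 (0.532). Neither Id2 feature appeared among the 5 of the other. Among the 100 features most like each Id feature, 34 for Id2 feature 12323, 59 for Id2 feature 12394 and 59 for Id3 lay within 2 positions of it, where 22.7% of all features lie. The median r with features of the same position was 0.185, 0.438 and 0.304 in that order, against -0.00358, 0.0128 and 0.0154 over all features. After centring on positions, the r of the 15 named features fell to between 0.198 and 0.549.

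**Figure D5:**
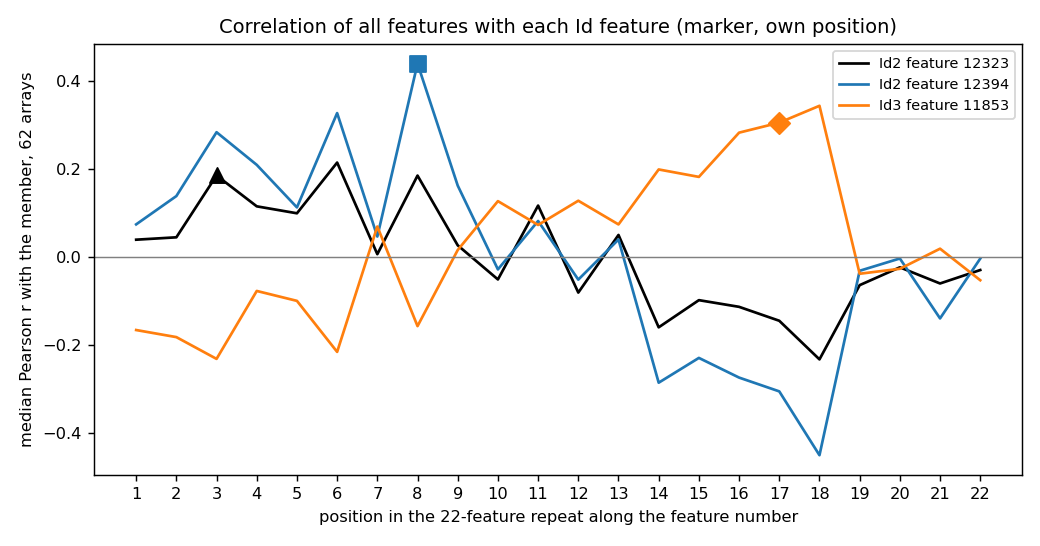
Median Pearson r over 62 arrays (y axis) between each Id feature and all features at each of the 22 positions (x axis), with a marker at the feature's own position. Each curve is high near its own marker, at 0.185, 0.438 and 0.304, and the curve of Id3 lies below 0 at positions 3 and 8, those of the Id2 features.

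The partners and the pathway of the Id proteins were measured in part. Of 8 lists there were 36 features of 35 genes, and in limma none of them was called in any of the 15 contrasts, either on all arrays or in the run fit. For CR against AL over the 3 ages 20 were positive and 16 negative, with a median of 0.00471 against -0.00151 over all features. Of the 36, 7 had an unadjusted p under 0.05 in limma, a larger share than the 897 of the 8448 features. In the run fit 1 of the 36 had one, and 433 of the 8448. From 6 to 24 months in AL mice 23 were positive and 13 negative with a median of 0.030, against -0.002, and 5 had an unadjusted p under 0.05, as had 1080 of the 8448, a similar share.

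Among the E proteins, the direct partners of Id2 and Id3, all 3 genes were measured by 4 features. Over the 3 ages Tcf3 gave a CR minus AL difference of -0.120 (SE 0.104) at one spot and 0.0356 (SE 0.0379) at the other, Tcf4 gave 0.00636 (SE 0.0339) and Tcf12 0.0506 (SE 0.0382). None passed, with adjusted p-values from 0.629 to 0.955, and the 2 spots of Tcf3 differed in sign. Of the other helix-loop-helix factors only Tcf21, a factor of mesenchymal cells, was measured, at 0.0613 (SE 0.0250, adjusted p = 0.434).

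Upstream, the BMP receptors Bmpr1a and Bmpr2 gave diet differences of 0.00731 (SE 0.0298) and -0.0564 (SE 0.0771), and the activin receptors Acvr1b and Acvr2b 0.0125 (SE 0.0367) and -0.00853 (SE 0.0541). Smad1 and Smad5, which carry the BMP signal, gave -0.0479 (SE 0.104) and 0.0126 (SE 0.0389). The common Smad4 gave 0.0736 (SE 0.0303, adjusted p = 0.434), and Smad3, of the TGF-beta branch, 0.0774 (SE 0.0309, adjusted p = 0.434). These 2 values were among the larger ones of the 10 Smads and Smad regulators, whose differences ran from -0.0542 to 0.0774 with a median of 0.00633. The genes named from here to the end of this paragraph were picked after their values were seen, for their roles. Fstl1, a secreted follistatin-like protein and the only BMP antagonist measured, gave -0.0702 (SE 0.0461), and the ligands Bmp15 and Bmp8b gave 0.00575 (SE 0.111) and 0.0386 (SE 0.0468). The 6 features of the TGF-beta list, which besides ligands and receptors held Tgfbi and Ltbp1, ran from -0.105 for Tgfbr2 to 0.0738 for Inha. The latter is the inhibin alpha subunit. Of the partners, stabilizers and cell cycle targets, Usp1, a deubiquitinase that stabilizes Id proteins, gave -0.0453 (SE 0.0552), Egr1, an early response transcription factor, -0.0491 (SE 0.0461), and the pocket proteins Rbl1 and Rbl2 0.0562 (SE 0.0277) and -0.017 (SE 0.0381). The 8 ran from -0.0796 for Srebf1, the regulator of lipid synthesis, to 0.0787 for the zinc finger factor Gata4, and none passed.

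Markers of the cell types in the cord were followed beside the Id features, with 18 features of 15 genes from 5 lists. Between the diets over the 3 ages 0 of the 18 were called in limma, against 0.0237% of all features. At an unadjusted p under 0.05 there were 2 of the 18 and 897 of the 8448 features, a similar share. Of the 18, 4 were positive and 14 negative, with a median of -0.0201, against -0.00151 over all features. The summed Z score of the 5 microglial features (C1qa, C1qb, C1qc and 2 of Ctsd, 4 of 13 listed genes) at 16 months ran from 0.32 to 2.11 in AL mice with a median of 0.945, and from 0.19 to 0.83 in CR mice with a median of 0.46. At 24 months it ran from 0.86 to 1.77 in AL and from 0.82 to 1.63 in CR mice, with medians of 1.235 and 1.13, and at 6 months, without arrays 31 to 33, the medians were 0.20 and 0.24. Over the 3 ages the differences were -0.120 and -0.0855 for the 2 spots of Ctsd and between -0.0141 and 0.00839 for the 3 C1q features. The 7 astrocyte features (6 of 18 genes) summed to between -0.15 and 1.20 in AL and between 0.26 and 1.37 in CR mice of 16 months, with medians of 0.635 and 0.555. The 2 vessel wall features, Acta2 and Pdgfrb (2 of 21 genes), summed to medians of 0.445 and 0.465, the single oligodendrocyte feature, Gsn (1 of 14 genes), to 0.34 and 0.245, and the 3 neuron features (2 of 15 genes) to 1.67 and 1.715 in the same mice. All 10 CR mice of 16 months thus had a microglial sum below the AL median, and 2 of the 5 summed features were spots of Ctsd. At that age the medians of the astrocyte sum and of Gsn were also lower in CR mice. Those of the vessel wall and neuron sums were higher. Over the 3 ages Cst3, of the astrocyte list, had the lowest difference of the 18 features, at -0.135 (SE 0.0667). In the run fit it was -0.124 (SE 0.0319), and Cst3 was called in neither. The part of any cell type in the Id2 difference was not tested.

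With age, 3 of the 18 marker features were called from 6 to 24 months in AL mice, against 0.071% of all features. All 3 rose and came from the microglial list. Ctsd, the lysosomal protease cathepsin D, rose by 0.459 at one spot and by 0.429 at the other (SE 0.0955 and 0.0941, adjusted p = 0.0353 and 0.0414 in limma). C1qa, a chain of complement C1q, rose by 0.286 (SE 0.0619, adjusted p = 0.0414), and in the run fit it was not past the threshold, at 0.244 (adjusted p = 0.0609). C1qb and C1qc of the same list gave 0.165 and 0.069 (adjusted p = 0.328 and 0.513 in limma) and were not called. The Id features differed by 0.125 or less over the same range. The study's own selection, of which the first step was run here, asks for a mean value above 0. Of the 3 Id features only Id2 feature 12394 met this, so the other Id features could not be selected. The selection took no Id feature in any of the contrasts on which it was run. It took 8 to 284 of the 8448 features per contrast, so that with 1 eligible feature this says little about the Id genes.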

How the data were processed

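Spinal cord RNA of 65 mice was measured, 1 array a mouse, and groups were taken from the title and characteristics of each sample. The authors made radiolabelled cDNA from the RNA, hybridized it to cDNA filters, extracted spot intensities with ArrayPro and computed a Z score within each array. The deposited values are this score, scaled so that the 8448 features of an array average 0 with unit SD, in a single table of 65 columns. The log base and the background treatment are not given in the sources used here, and a score relative to the other spots cannot show a change common to most of them. Precision is set by the number of mice, since the score keeps no depth.

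Gene symbols came from the platform annotation, which gave 224 features several symbols and 3349 none. The members and gene lists were chosen with earlier results of these data known, and so was the use of the array runs and of the 22 positions. Differences were fitted to the deposited scores with limma 3.58.1 (lmFit and eBayes, R 4.3.3), using 14 means of stage, diet and sex in 1 fit of all arrays. Calls were features with a Benjamini-Hochberg adjusted p under 0.05 over all 8448. The p-values rest on the spread between mice and between their arrays together, which 1 array a mouse cannot separate. Runs were separated at the widest gap of the first principal component (36.0% of the variance, 95.8% of it between runs). Correlations between members were tested by permutation (100000 draws, two-sided, Python 3.11.15). Named were the Id2 and Id3 features, members of the lists that passed a test or were chosen for their role, and the 5 features most like each Id feature. The fitting script was tested on simulated data. The alternatives were the run as a covariate with arrays 31 to 33 left out, leaving out those arrays alone, array weights, quantile normalization and centring on positions. Others were features above 0 only, the compared groups only, and leaving out each array in turn. The array whose description label names another mouse (24-month AL male replicate 2) was also left out. A last alternative had 5 blocks of array numbers in the model. Each block began at a juvenile AL male, and no label names the blocks.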

Additional observations from a re-analysis of the deposited data

Results flagged for a closer look

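Among the 21 sets of values of an Id feature in a stage and diet group, 4 held an array far from the others by Dixon's ratio, where chance gives about 1 in 20. Array 33, the 6-month AL male replicate 3, accounts for 3 of them. In its group of 10 mice it was the highest for Id2 feature 12323, at 0 with the next mouse at -0.27, and the lowest for Id2 feature 12394, at -1.13 with the next at 0.12, and for Id3, at -1.51 with the next at -0.83. The same array was at either end of the 65 arrays in 61.9% of all features, so that these 3 values are not particular to the Id genes. The 4th was Id3 in the 16-month AL male replicate 4 (array 51), the lowest of 10 mice at -0.85 with the next at -0.65. In that mouse Id2 feature 12394 was the highest of its group, at 0.36.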

How the results depend on the processing

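In the run fit (run as a covariate, arrays 31 to 33 left out) the juvenile to 6 month change turned to 0.0164 for Id3, -0.0198 for Id2 feature 12323 and 0.0751 for Id2 feature 12394. For feature 12394 the AL change turned to -0.0121 from 6 to 16 months and to -0.0470 from 6 to 24 months, and the CR change from 6 to 24 months to -0.116. For feature 12323 the CR change turned to -0.0113 from 16 to 24 months and to -0.0103 from 6 to 24 months, its difference between diets of the 6 to 24 month change to -0.0410, that between sexes to 0.0259 and that of older juveniles to 0.0278, while the difference between diets for Id3 turned to 0.0386. With only arrays 31 to 33 left out, the juvenile step was -0.05 for feature 12323 and 0.0768 for feature 12394, whose later changes were -0.0138 and -0.0498 in AL mice and -0.118 in CR mice. Id3 then gave -0.00275 between diets at 6 months and 0.0336 for the difference between diets, and feature 12323 gave -0.0493 for the latter and 0.046 for that between sexes.

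Array weights turned the juvenile step to 0.00671 for Id3, -0.0677 for feature 12323 and 0.0642 for feature 12394, the 6 to 24 month change of feature 12394 to -0.0534 in AL and -0.0483 in CR mice, the difference between diets to -0.0667 for feature 12323 and 0.00510 for feature 12394, and that between sexes to -0.00769 for Id3 and 0.0366 for feature 12323. Quantile normalization turned the 6 to 16 month change of feature 12323 in AL mice to -0.0123. Centring on positions turned it to -0.014, the 16 to 24 month change to 0.016 for feature 12394 (AL) and -0.0407 for Id3 (CR), the Id3 diet difference to 0.0065 at 16 and -0.00171 at 24 months, and for feature 12323 the difference between sexes to 0.006 and that of older juveniles to 0.0292. The 5 blocks of array numbers turned the latter to 0.0166. None of these values passed the test, and the cause of the turns was not tested.

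The 3-age diet difference of Id2 feature 12323, a description that holds the 16-month values behind its choice, was -0.111 in the run fit, -0.124 without arrays 31 to 33, -0.106 with array weights, -0.149 after quantile normalization, -0.0898 after centring on positions, -0.156 without the array whose labels differ, and -0.157 with the compared groups only. Leaving out 1 array at a time gave -0.175 to -0.139.

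Leaving out 1 array at a time changed a sign as follows. Without 6-month AL male replicate 3 (array 33) the juvenile step reached -0.05 for feature 12323 (range -0.05 to 0.02) and 0.0768 for feature 12394 (range -0.115 to 0.0768). The same array gave -0.0138 of a range to 0.178 (6 to 16 months) and -0.0498 of a range to 0.142 (6 to 24 months) for feature 12394 in AL mice, and for Id3 0.00681 of a range from -0.0344 between sexes. It gave one end of the range for the difference between diets too, -0.112 to 0.00475 for Id3, -0.00292 to 0.106 for feature 12323 and -0.152 to 0.0841 for feature 12394, and for that between sexes of feature 12323, -0.106 to 0.046. The 6 to 16 month change of feature 12323 in AL mice ran from -0.015 (without 6-month AL male replicate 2) to 0.055, and its 16 to 24 month change in CR mice from -0.0267 (without 24-month CR female replicate 1) to 0.0183. The 6 to 16 month CR change of Id3 ran from -0.0115 (without 6-month CR male replicate 3) to 0.056. Without 6-month CR male replicate 2 (array 31), feature 12394 reached -0.0657 from 6 to 24 months in CR mice (range to 0.102) and 0.027 between diets at 6 months (range from -0.209). Older juveniles ranged from -0.06 to 0.02 for feature 12323 (the latter without juvenile female replicate 5) and from -0.0625 to 0.0075 for feature 12394 (the latter without juvenile male replicate 3).

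The correlation of the 2 Id2 features was 0.442 in the second run, -0.224 over 65 arrays and 0.147 after centring on positions. That of Id2 feature 12394 and Id3 was -0.315, 0.488 and -0.213 in the same order, and that of Id2 feature 12323 and Id3 was -0.430 over 65 arrays and 0.137 after centring. Over all alternatives the count of features called ranged from 0 to 1829 for 6 to 24 months in AL mice (6 in the fit reported, 1829 with array weights), 0 to 42 for 16 to 24 months (0), 0 to 7 for 6 to 16 months (2), 5 to 24 for the juvenile step (11), 0 to 4 for 6 to 24 months in CR mice (2), 1 to 2 for the diets at 6 months (2) and over the 3 ages (2), and 0 to 1 for sex (0). Only Id2 feature 12394 passed a filter on mean values above 0. No paired analysis was possible because the labels pair no mice.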
